A study of Mus musculus with 6 samples.

Results

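The genes described here are 9 factors of the naive pluripotent state, Nanog, Esrrb, Tfcp2l1, Zfp42, Klf2, Klf4, Klf5, Nr0b1 and Tcl1, taken by symbol from the 23353 genes listed in an RNA-seq table of day 4 embryoid bodies. All 9 were listed. All 9 also reached a normalized count of at least 10 in every library, so none was lost to the filter on low values that left 13136 genes for testing. The rule that picks them uses their symbols and no measured value.

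Naive pluripotency is the state of the preimplantation epiblast and of mouse embryonic stem cells (mESCs) kept with leukaemia inhibitory factor (LIF). LIF acts through STAT3, which turns on Klf4 and Tfcp2l1 among others, and these factors, with Nanog, Esrrb and Klf2, hold one another and the core factors Pou5f1 and Sox2 in an interlocked network. When LIF is withdrawn most of the naive factors are switched off, and cells pass through a formative and then a primed epiblast state before they enter the germ layers. Nanog is the exception in the embryo, since it is expressed again in the posterior epiblast at the onset of gastrulation.

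Embryoid bodies (EBs) are floating aggregates in which mESCs differentiate. Wildtype EBs came from the parental W9.5 mESC line. EVX1-Δfs EBs (Evx1Δfs clone 14 in the labels) came from 1 clone of that line, carrying small frameshift deletions in both alleles of the homeobox gene Evx1, so that the edit and any other property of that clone cannot be told apart. Both genotypes had been maintained in LIF and were then grown for 4 days in serum-containing medium without it, with 3 libraries per genotype. By the study's methods, conditions to be compared were started on the same day and replicates on different days. That equal replicate numbers share a day is not stated. They were taken as pairs here for ratios and for fits with a replicate block. The main test used genotype alone. Reads assigned to genes numbered 7597879 to 9914471 per library. The transcript of the edited gene itself was measured at 2358, 2176 and 2400 normalized counts in wildtype and 2354, 2516 and 2012 in EVX1-Δfs. A frameshift need not change a transcript's count, so Evx1 gave no check of the labels (log2 fold change -0.02, limma adjusted p = 0.950). Markers of the primitive streak and nascent mesoderm, the cells that gastrulating EBs produce, were detected in every library, with all 12 of 12 passing the filter.

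The sequences just upstream of the annotated starts are shown for the 3 members that held a motif of a KLF factor, since KLF factors are themselves members of the set. They are the 250 bases before the start in RefSeq's promoter table (GRCm38.p6), each placed on NCBIM37 (mm9), the build of the reads, by exact match. Capitals mark the letters TTTGCAT (the core of the octamer bound by POU factors), ACAATG or ACAAAG (SOX factors) and GGGNGTGG (KLF factors), searched on both strands. The lines give Nanog (chr6:122657257-122657506, plus strand), Zfp42 (chr8:44392364-44392613, minus strand) and Tfcp2l1 (chr1:120524272-120524521, plus strand), each 5′ to 3′ along its gene.
Nanog: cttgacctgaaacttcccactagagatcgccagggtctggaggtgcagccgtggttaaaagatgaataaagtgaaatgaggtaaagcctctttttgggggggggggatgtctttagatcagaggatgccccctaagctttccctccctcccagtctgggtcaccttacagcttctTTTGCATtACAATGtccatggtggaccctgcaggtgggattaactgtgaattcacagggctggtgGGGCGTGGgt
Zfp42: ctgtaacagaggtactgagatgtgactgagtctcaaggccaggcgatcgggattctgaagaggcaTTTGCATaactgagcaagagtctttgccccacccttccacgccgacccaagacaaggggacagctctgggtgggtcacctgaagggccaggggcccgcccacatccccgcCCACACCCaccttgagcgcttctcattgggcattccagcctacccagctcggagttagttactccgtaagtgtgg
Tfcp2l1: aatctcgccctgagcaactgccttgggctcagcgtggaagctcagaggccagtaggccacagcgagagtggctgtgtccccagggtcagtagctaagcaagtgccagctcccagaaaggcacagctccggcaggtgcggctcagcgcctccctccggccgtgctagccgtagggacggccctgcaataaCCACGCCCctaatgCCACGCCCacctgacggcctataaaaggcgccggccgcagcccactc

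Nanog had 2 annotated starts, and the window of the first is printed. There the octamer core began 75 bases before the start and the SOX letters 67 bases before it, 1 base apart, with the KLF letters at 10 bases. Counted from the second start, the octamer core stood at 151, the SOX letters at 143 and KLF letters at 86 and 52 bases. In Zfp42 the octamer core stood 185 and the KLF letters 75 bases before the start. Tfcp2l1 held the KLF letters at 61 and at 47 bases. The table had 10 promoters for 8 of the members and no entry for Klf5. Octamer letters were in 3 of these 10 promoters (of Nanog and Zfp42) and in 4.12% of all 32851 promoters of the same length. SOX letters were in 3 of 10 (of Nanog and Nr0b1) and in 25.2% of all. KLF letters were in 4 of 10 (of Nanog, Zfp42 and Tfcp2l1) and in 15.9% of all. The 2 Nanog windows overlap, so its octamer and SOX letters are counted in both, as are the KLF letters 10 bases before the first start. Neither AAGGTCA (ESRRB, in 4.08% of all promoters) nor the homeodomain letters TAATTA (in 4.84%) were in any of the members' 10 windows. These matches describe letters in a window and no binding was measured.

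After 4 days without LIF the members still differed widely in level. Per kilobase of annotated exon, wildtype EBs held 467 ± 37.0 normalized counts of Nanog (SD, n = 3), 210 ± 35.7 of Zfp42 and 157 ± 6.06 of Klf2. Klf5 followed at 85.0 ± 16.0 and Esrrb at 44.6 ± 2.96 on the same scale. Lower still were Klf4 at 32.6 ± 2.37, Nr0b1 at 32.3 ± 11.0, Tcl1 at 9.67 ± 0.646 and Tfcp2l1 at 5.90 ± 0.581. Averaged over the libraries of both genotypes, Nanog stood at the 92.7th percentile of the tested genes on this scale and Tfcp2l1 at the 11.1th. In wildtype the only neighbours in this order whose means ± SD overlapped were Klf4 and Nr0b1, and in EVX1-Δfs that pair changed places while the rest of the order was kept. In EVX1-Δfs, where Nr0b1 was at 42.6 ± 19.08, Klf4 at 38.0 ± 3.45 and Esrrb at 60.5 ± 4.60, Nr0b1 overlapped in this way with both of its neighbours, and Tcl1 at 12.9 ± 3.79 with Tfcp2l1 at 10.2 ± 0.915. The low level of Tfcp2l1 rested in part on a long annotated exon sequence of 9269 bases: per kilobase of coding sequence it was at 38.1 in wildtype and above Tcl1 at 21.1.

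**Figure D1:**
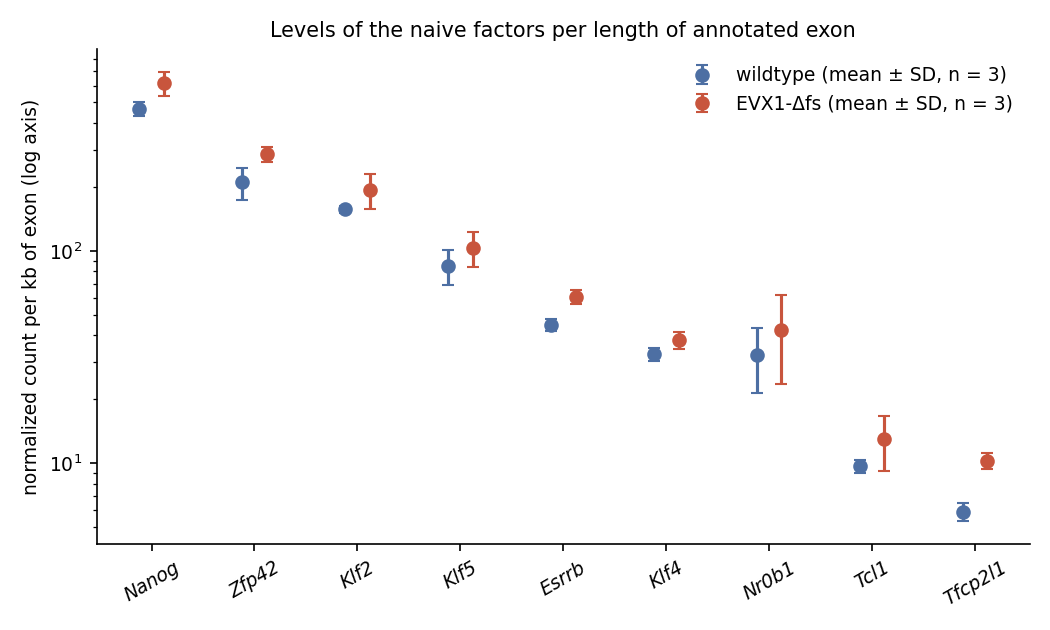
Level of each naive factor per kilobase of annotated exon, on a log axis, as the mean ± SD of 3 libraries, with wildtype in blue and EVX1-Δfs in red. The genes span from 467 for Nanog to 5.90 for Tfcp2l1 in wildtype means.

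Every member had a higher mean in EVX1-Δfs than in wildtype EBs, by a log2 fold change of 0.22 (Klf4) to 0.79 (Tfcp2l1), but only Tfcp2l1 passed the test. The median over the 9 genes was 0.36, beside 0.00 over all tested genes, of which 50.1% lay above 0. Here and throughout, log2 fold changes are EVX1-Δfs over wildtype from limma on log2(normalized count + 1), with Benjamini-Hochberg adjustment over the 13136 genes and a threshold of 0.05. One member called higher of 9 stands beside 2.08% of all tested genes called higher and 2.95% called lower (273 and 387 genes, or 370 and 325 with upper-quartile scaling). In 6 of the 9 genes the lowest EVX1-Δfs library lay above the highest wildtype library, an arrangement found in 12.2% of the tested genes. The counts of the 9 genes summed to between 2258 and 2406 in the wildtype libraries and between 2860 and 3327 in the EVX1-Δfs libraries, and Nanog made up 41.3% to 47.4% of each sum. Because EBs are mixtures measured in bulk, a larger number of cells with these transcripts and more transcript per cell cannot be told apart.

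**Figure D2:**
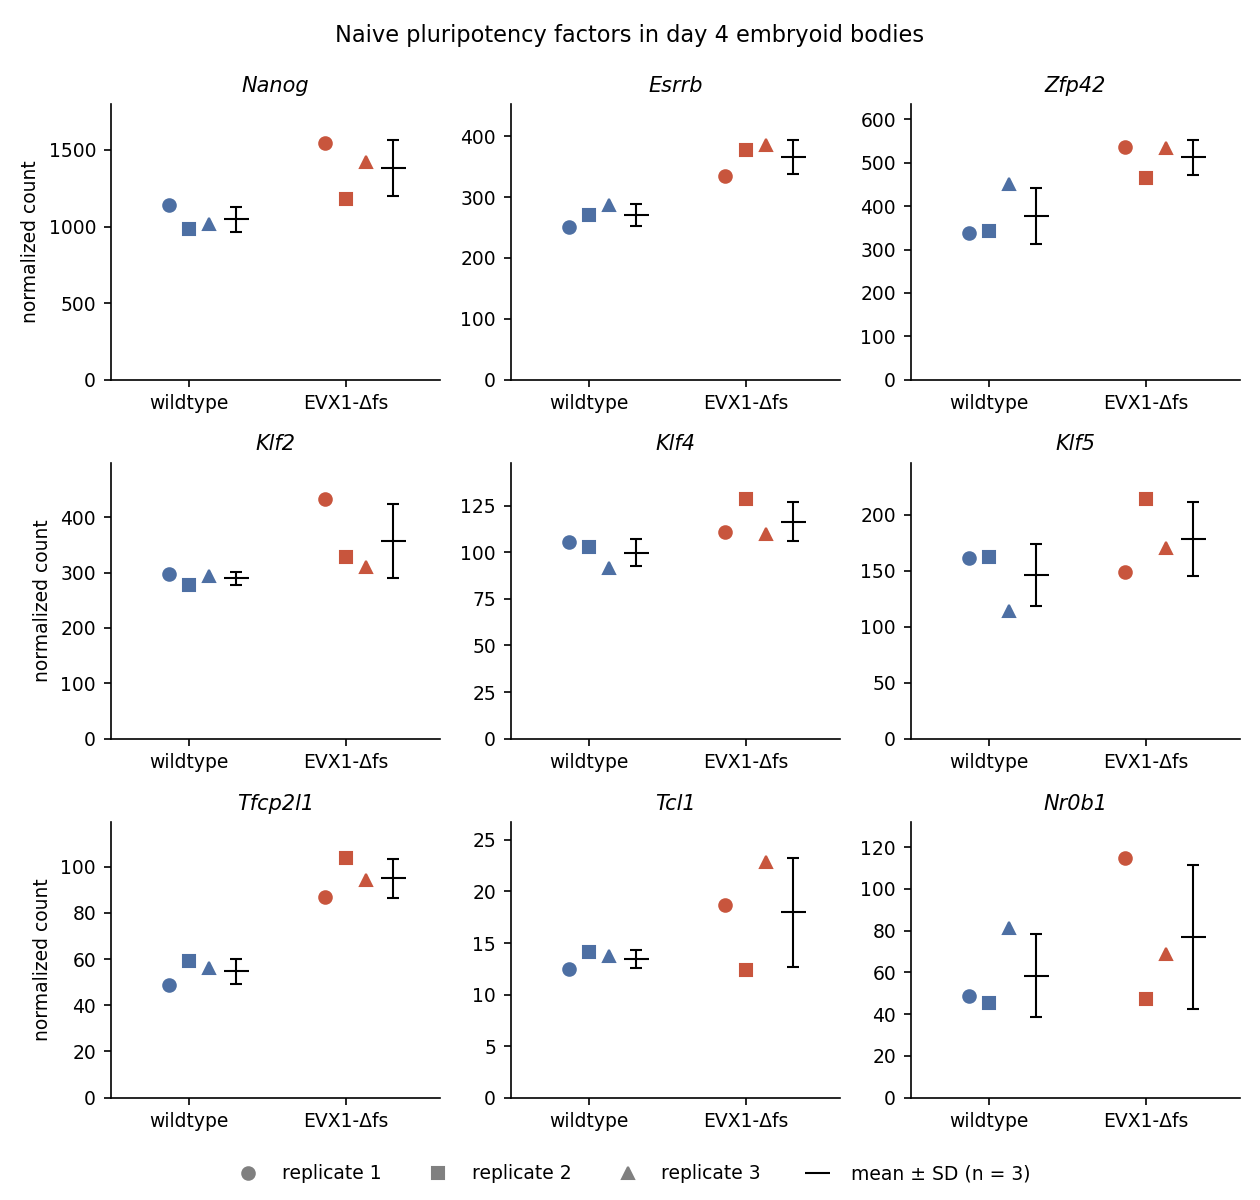
Normalized count of each naive factor in the 3 wildtype and 3 EVX1-Δfs libraries, 1 panel per gene with its own axis from 0. Marker shape gives the replicate and the bar the mean ± SD. The groups do not overlap in 6 panels and overlap for Klf5, Tcl1 and Nr0b1.

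Tfcp2l1 (chr1:120524522-120581744, plus strand), a CP2-family transcription factor and target of STAT3, had the largest difference of the set. It was at 48.8, 59.3 and 56.1 normalized counts in the wildtype libraries, given in replicate order here and below, and at 86.8, 104 and 94.3 in those of EVX1-Δfs. The EVX1-Δfs libraries stood together and well above the wildtype ones, and the ratio within the pairs of equal replicate number was 1.78, 1.75 and 1.68. The log2 fold change was 0.79 ± 0.20 (SE, 95% interval 0.37 to 1.20, limma adjusted p = 0.0265), a 1.72-fold difference. These values rested on 49 to 99 reads per library. The limma adjusted p was 0.0574 with the replicate number as a block. Without EVX1-Δfs replicate 1, 2 or 3 it was 0.0613, 0.0714 and 0.0906, and without wildtype replicate 1 it was 0.0795, so that the call was lost in each case. In the annotation used here, which may not be that of the counting, 130 exonic bases of Tfcp2l1 coincide with a U1 small nuclear RNA gene on the same strand. The part of reads from there was not tested.

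Nanog (chr6:122657507-122664651, plus strand), the homeobox factor whose dose sets how readily mESCs self-renew, was the most abundant member. Its normalized counts were 1140, 983 and 1016 in wildtype and 1542, 1182 and 1422 in EVX1-Δfs. All 3 EVX1-Δfs libraries exceeded all 3 wildtype ones, with replicate 2 of EVX1-Δfs closest to the wildtype range. The log2 fold change was 0.40 ± 0.12 (SE, 95% interval 0.15 to 0.64), and the limma adjusted p of 0.0552 missed the threshold. Mouse Nanog has processed pseudogenes, so reads that align to both make its count uncertain. Counting used the standard settings of HTSeq.

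Esrrb (chr12:87702067-87862578, plus strand), an orphan nuclear receptor that can stand in for Nanog in self-renewal, varied little between libraries of either genotype (coefficients of variation of 6.64% and 7.59%). It was at 252, 271 and 287 normalized counts in wildtype and at 334, 378 and 386 in EVX1-Δfs. The groups did not overlap, and the ratios within pairs of equal replicate number, 1.33, 1.40 and 1.34, were alike. Its log2 fold change of 0.44 ± 0.13 (SE, 95% interval 0.16 to 0.71) had a limma adjusted p of 0.0544.

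Zfp42 (chr8:44380422-44392363, minus strand), which encodes the zinc finger protein REX1 and serves as a reporter of the naive state, was at 339, 343 and 452 normalized counts in wildtype and at 537, 466 and 535 in EVX1-Δfs. Wildtype replicate 3 stood apart from the other two and reached almost to EVX1-Δfs replicate 2. The log2 fold change was 0.45 ± 0.13 (SE, 95% interval 0.17 to 0.73, limma adjusted p = 0.0544). Without wildtype replicate 3 the limma adjusted p was 0.0145.

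These 3 genes lay so close to the threshold that the choice of test decided their call. DESeq2 with default settings, the tool used in the study, gave adjusted p-values of 0.0293 for Nanog, 0.0414 for Esrrb, 0.0442 for Zfp42 and 0.0271 for Tfcp2l1 on the recovered reads, thus 4 members higher beside 2.44% of the genes to which it gave an adjusted p. The quasi-likelihood test of edgeR called the same 4, with adjusted p-values of 0.0430, 0.0432, 0.0434 and 0.0238 in that order, beside 2.39% of its tested genes. With the replicate number as a block limma called none of the 9, beside 0.579% of all genes called higher, and the 4 adjusted p-values lay between 0.0574 and 0.0804. Unadjusted limma p-values under 0.05 were found for the same 4 members with and without the block. Without it, 10.7% of all tested genes were higher at that level.

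The KLF factors, zinc finger proteins that bind GC-rich and CACCC-type sites and act in part redundantly in mESCs, had log2 fold changes of 0.22 to 0.29, with none called (0.34 to 0.48 with GC and length trends removed). Klf2 (chr8:74842932-74845555, plus strand), whose protein is stabilized by MEK inhibition, was at 298, 277 and 293 normalized counts in wildtype and at 433, 328 and 311 in EVX1-Δfs. The groups did not overlap, but EVX1-Δfs replicate 1 stood far above the rest. Its log2 fold change of 0.29 ± 0.14 (SE) had a 95% interval that just reached 0 (limma adjusted p = 0.225). The fold change was 0.14 on that scale when EVX1-Δfs replicate 1 was left out.

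Klf4 (chr4:55540013-55545347, minus strand), the STAT3 target also used in reprogramming, was at 105, 103 and 91.6 normalized counts in wildtype and at 111, 129 and 109.6 in EVX1-Δfs. The groups were separate by a narrow margin. Klf5 (chr14:99697910-99712624, plus strand) was at 162, 163 and 115 in wildtype and at 149, 214 and 171 in EVX1-Δfs, so that its groups overlapped and replicate 1 went the other way. Their log2 fold changes of 0.22 ± 0.17 and 0.28 ± 0.18 (SE) had limma adjusted p-values of 0.475 and 0.346. The 95% intervals, -0.14 to 0.58 for Klf4 and -0.08 to 0.65 for Klf5, held both no difference and differences as large as that of Nanog.

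Nr0b1 and Tcl1 were the least even members. Nr0b1 (chrX:83437103-83441286, plus strand), an orphan nuclear receptor also known as DAX1 that binds OCT4 and restrains its activity, was at 48.8, 45.1 and 81.3 normalized counts in wildtype and at 115, 47.4 and 68.6 in EVX1-Δfs. High and low libraries were found in both genotypes, and only replicate 1 differed widely between them, by a ratio of 2.35. Its log2 fold change of 0.35 ± 0.28 (SE, limma adjusted p = 0.475) fell to 0.02 without EVX1-Δfs replicate 1 and was 0.65 without EVX1-Δfs replicate 2.

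Tcl1 (chr12:106454967-106460947, minus strand), a cofactor of the kinase AKT rather than a DNA-binding factor, had the fewest reads. It was at 12.4, 14.2 and 13.7 normalized counts in wildtype and at 18.7, 12.4 and 22.9 in EVX1-Δfs, with replicate 2 of EVX1-Δfs no higher than wildtype. The reads summed to 41 in wildtype (exact Poisson 95% interval 29.4 to 55.6) and 55 in EVX1-Δfs (41.4 to 71.6), intervals that cover counting error only. The log2 fold change of 0.36 ± 0.37 (SE, limma adjusted p = 0.597) had a 95% interval of -0.40 to 1.12, which held 0 and the value of every other member.

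**Figure D3:**
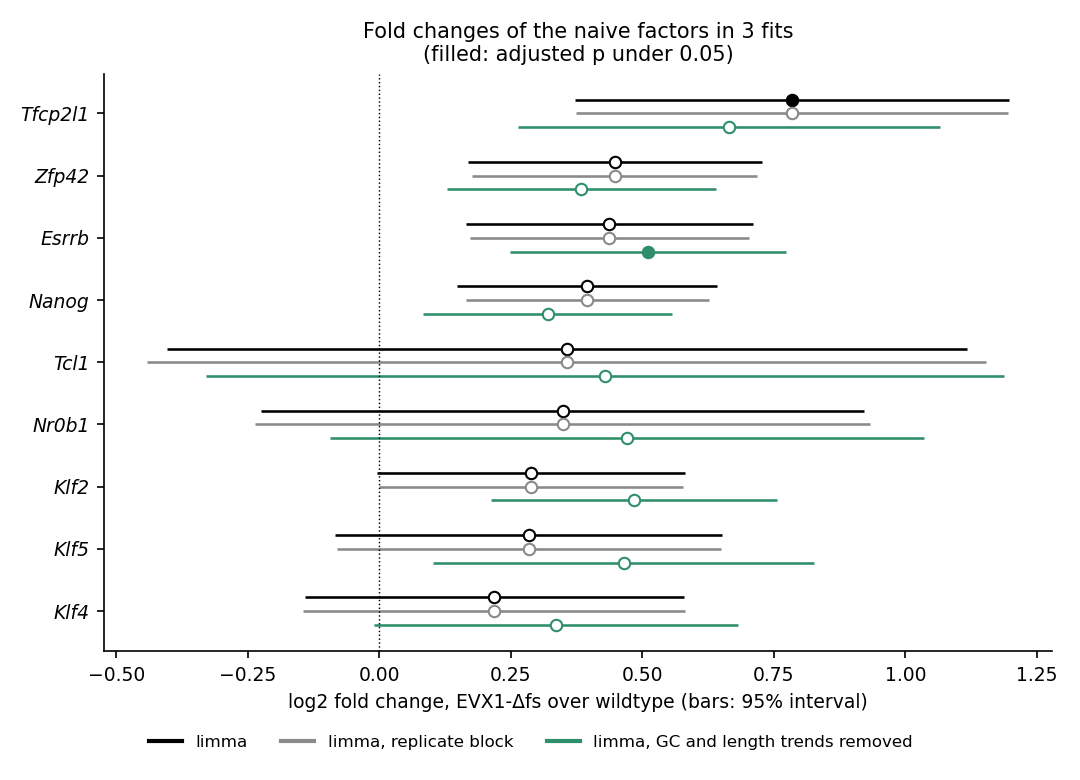
Log2 fold change of each naive factor, EVX1-Δfs over wildtype, with its 95% interval in 3 limma fits (genotype alone, with the replicate block, and after removal of GC and length trends). Filled points have an adjusted p under 0.05: Tfcp2l1 in the first fit and Esrrb in the third.

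Base composition moved with genotype in these libraries. Across 12978 tested genes with a GC content, the log2 fold change and the GC content of the exons had a Spearman correlation of -0.46, a description over genes that share libraries. The members' exons ranged from 46.0% GC in Nanog, 46.6% in Zfp42 and 47.0% in Tfcp2l1 to 60.3% in Klf5 and 61.6% in Klf2, with a median of 54.5% beside 50.3% over all tested genes. When the GC and length trend of each library was removed, the members of lowest GC lost part of their difference, to log2 fold changes of 0.32 for Nanog, 0.38 for Zfp42 and 0.66 for Tfcp2l1. The others gained, among them Esrrb at 0.51, Klf5 at 0.46 and Klf2 at 0.48. The members' median was then 0.46 and all 9 remained above 0. In that fit the 1 member called was Esrrb, at a limma adjusted p of 0.0349 (0.0482 once the block was added), beside 0.763% of genes called higher. Klf2 was at 0.0532 and Tfcp2l1 at 0.0764.

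**Figure D4:**
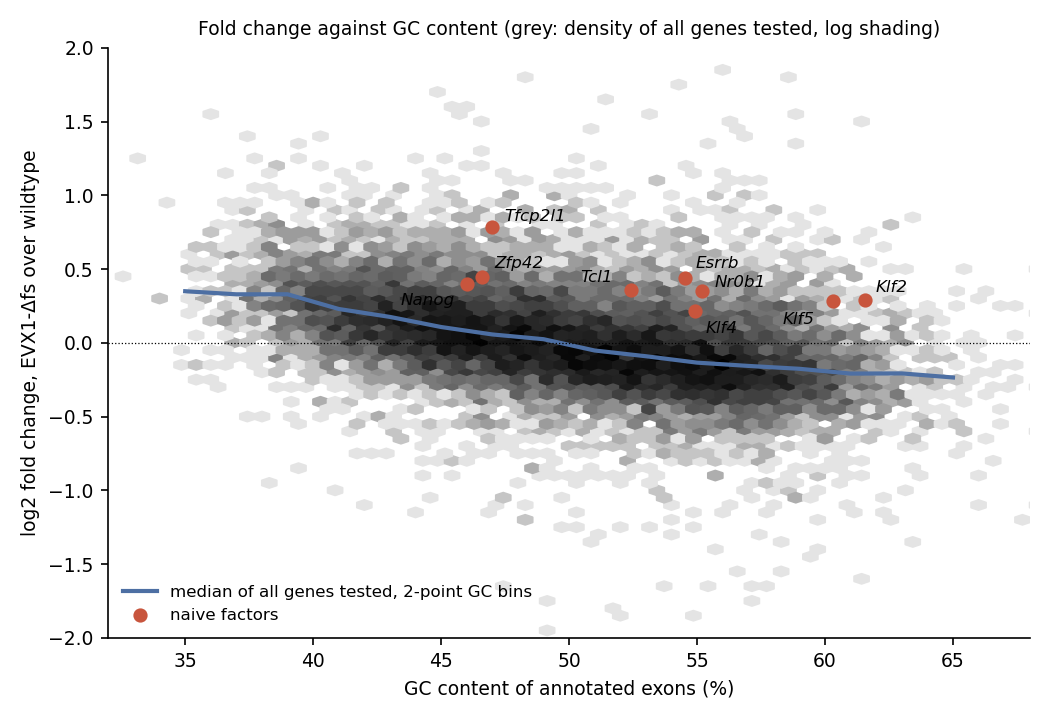
Log2 fold change, EVX1-Δfs over wildtype, against the GC content of the exons in percent, with the density of the tested genes in grey, their median in 2-point GC bins as a line and the naive factors as red points. Genes beyond the axes are not drawn. The members lie above 0 along the whole range from 46.0% to 61.6% GC, while the tested genes as a whole slope downward.

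Other genes of the naive and ground state did not move one way. Of 16 listed, 15 passed the filter and 10 of these lay above 0, with a median log2 fold change of 0.14. The median was 0.07 with GC and length trends removed. Normalized counts of the 16 summed to 6986 to 7790 in wildtype libraries and to 6012 to 6190 in EVX1-Δfs libraries, thus lower, unlike the sums of the members. Fgf4, the signal that drives mESCs out of the naive state and a target of OCT4 and SOX2, was higher (0.60 ± 0.15 SE, limma adjusted p = 0.0221, and 0.0579 with the replicate block). Tbx3, a T-box factor of the naive network that is also expressed in mesoderm and extraembryonic tissue, was lower (-0.72 ± 0.12 SE, limma adjusted p = 0.00178). Alpl, the alkaline phosphatase used to stain pluripotent colonies, was also lower (-0.61 ± 0.11 SE, limma adjusted p = 0.00247).

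The core factors, needed in naive and primed cells alike, had a median of -0.05 over 8 of 8 tested genes, and limma called none of them. Sox2, partner of OCT4, was closest at 859, 823 and 969 normalized counts in wildtype and 1406, 1045 and 1093 in EVX1-Δfs (log2 fold change 0.41 ± 0.12 SE, limma adjusted p = 0.0559), and its adjusted p was 0.0346 with DESeq2. Lin28a, an RNA-binding protein that blocks let-7 processing, was at -0.10 (limma adjusted p = 0.620). With GC and length trends removed, the median of the core list was 0.07 and Sox2 was called higher (limma adjusted p = 0.0308).

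Formative and primed epiblast genes, the state that follows the naive one, had a median of 0.25 over 12 of 12 tested genes, with 9 above 0. Fgf5, a growth factor of the postimplantation epiblast, was higher (0.61 ± 0.16 SE, limma adjusted p = 0.0293). Sox3, a SOXB1 factor of epiblast and neural ectoderm, was lower (-0.77 ± 0.21 SE, limma adjusted p = 0.0373). Neither was called with the replicate block, at limma adjusted p-values of 0.0624 and 0.0864, or with GC and length trends removed. Whether the naive factors differed more than the epiblast genes was not tested.

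Upstream of the naive factors, the LIF and STAT3 pathway had a median of -0.06 over 11 of 11 tested genes, with none called. Its lowest adjusted p-values belonged to the phosphatase gene Ptpn11 (-0.23 ± 0.11 SE, limma adjusted p = 0.211) and to Stat3 itself (-0.30 ± 0.15, limma adjusted p = 0.245). Genes of the machinery that dismantles the naive state, such as the TCF3 gene Tcf7l1, ERK kinases and the folliculin complex, had a median of 0.06 over 14 of 14 tested genes. Again none was called, and the lowest adjusted p-values were those of the folliculin partner Fnip1 (0.37 ± 0.13, limma adjusted p = 0.102) and the NuRD subunit Mbd3 (-0.35 ± 0.13, limma adjusted p = 0.113).

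**Figure D5:**
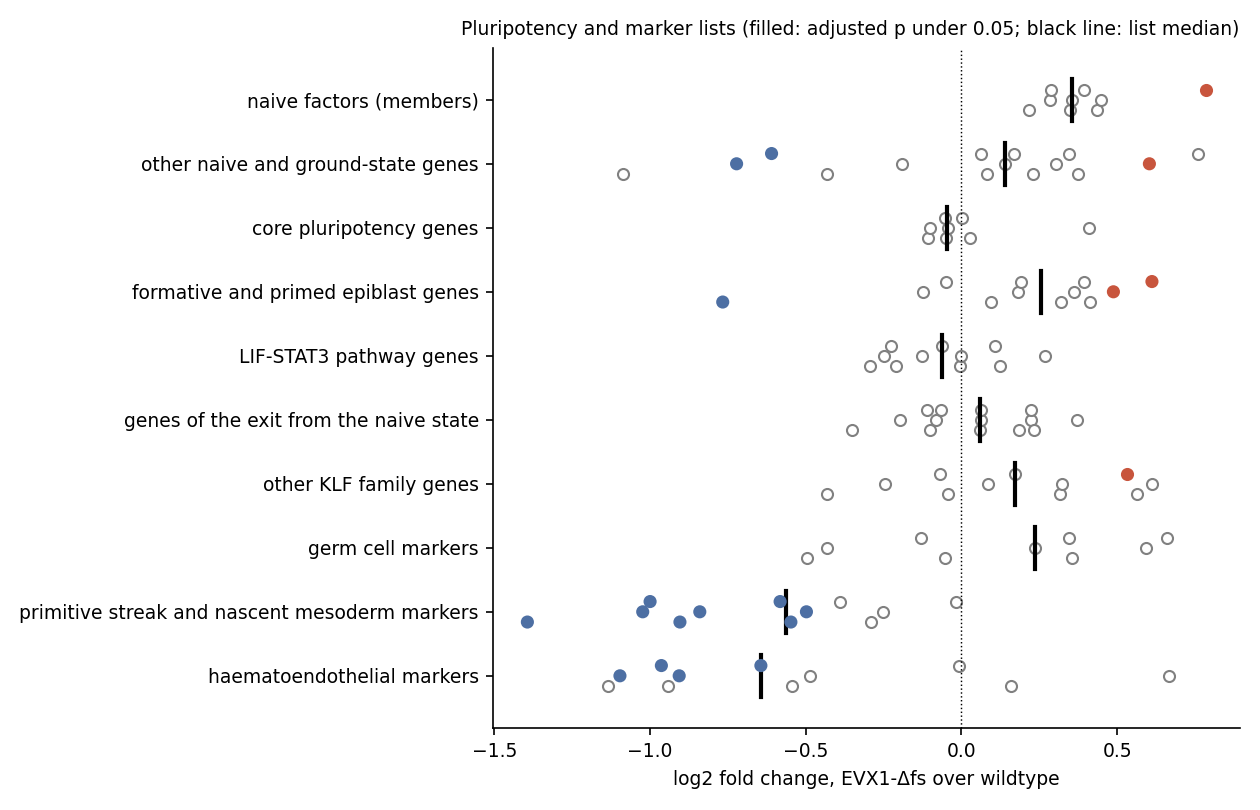
Log2 fold changes, EVX1-Δfs over wildtype, of the tested genes of 10 lists, with 1 point per gene, the list's median as a black line and called genes filled. The naive factors have a median of 0.36 with every gene above 0, and the primitive streak and nascent mesoderm markers one of -0.57.

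Markers of other cell types moved with the same contrast. Primitive streak and nascent mesoderm markers summed to 16313 to 19659 normalized counts in wildtype libraries and 10987 to 14291 in EVX1-Δfs libraries, and limma called 8 of 12 lower, beside 2.95% of all tested genes. The median was -0.57 and none of the 12, which include the edited gene Evx1, lay above 0. The lowest adjusted p-values among them were those of the mesoderm factors Mesp1 (-1.02), Msgn1 (-1.39), Snai1 (-0.90) and Mixl1 (-0.84), at 0.000181, 0.000300, 0.00116 and 0.00143 by limma. Haematoendothelial markers summed to 3398 to 4494 in wildtype and 2000 to 2287 in EVX1-Δfs, and limma called 4 of 11 tested genes lower, beside the same 2.95% (log2 fold changes of -1.10 for Etv2, -0.96 for Gata2, -0.91 for Kdr and -0.64 for Lmo2). With GC and length trends removed Evx1 was at 0.18 and the other streak markers were below 0. Lmo2 was not called in that fit (limma adjusted p = 0.0688). The part of these shifts in the naive factors' difference was not tested. Of 10 trophoblast markers 6 were tested and 2 called lower, beside the same 2.95%. These were Hand1 (-1.28) and Cdx2 (-0.70), both also expressed in mesoderm. The median over the 6 was -0.13, with 2 above 0. Prl3d1 was at 0 in all libraries, and Elf5 and Tpbpa each had reads in 1 library only. Sums for that list, which include Hand1 and Cdx2, were 3270 to 5101 in wildtype and 1716 to 2178 in EVX1-Δfs. The study's text names Nanog, Tbx3, Tbx6, Mesp1, Mixl1, Eomes, Snai1, Wnt3, Kdr, Hand1 and Cdx2 among the genes that differed in these same libraries, so the direction of these lists is no independent evidence.

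Germ cells and visceral endoderm, which also use some of these factors, gave no call. The 11 germ cell markers summed to 1156 to 1288 normalized counts in wildtype and 1284 to 1340 in EVX1-Δfs, with a median of 0.24 over 9 tested genes. Among them the receptor gene Kit was at 0.35 ± 0.13 (SE, limma adjusted p = 0.113) and Prdm1, which specifies germ cells, at -0.50 ± 0.21 (limma adjusted p = 0.152). Of the visceral endoderm markers only 5 of 12 passed the filter, of which 2 lay above 0. The lowest adjusted p-values were those of Gata4 (-0.38 ± 0.14, limma adjusted p = 0.112) and Gata6 (-0.38 ± 0.16, limma adjusted p = 0.146). The median of -0.38 was Gata4's own value. Sox17, Cer1 and Foxa2, which this list leaves out, are reported by the study as higher in these libraries. The study counts them among genes of anterior mesendoderm or anterior visceral endoderm. Afp, Ttr, Apoa1 and Apoa4, which define that tissue, were each at 0 in 3 or more libraries and never above 3.81 normalized counts. The list summed to 736 to 893 in wildtype and 599 to 796 in EVX1-Δfs.

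The members were also set side by side as profiles across the libraries. The median of their log2 values, each centred on its own mean, was -0.28, -0.21 and -0.15 in the wildtype libraries and 0.27, 0.09 and 0.25 in the EVX1-Δfs ones. By root mean square distance over the 6 libraries, Zfp42 lay closest to that profile at 0.105, then Esrrb at 0.106 and Nanog at 0.114, and Nr0b1 lay farthest at 0.395. Each member helps to set the median, so its distance and rank are not independent of that profile. The 5 other tested genes nearest to it were Copg2 at 0.0530, Dnajc10 at 0.0531, Rps27l at 0.0548, Hells at 0.0595 and Sh2d5 at 0.0598. Since that profile is low in wildtype and high in EVX1-Δfs, the genotype difference of these 5 genes was fixed by how they were picked. Many genes lay as near: Zfp42 ranked 127 and Nr0b1 10286 among the tested genes.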

How the data were processed

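Messenger RNA of day 4 EBs was sequenced by the authors on an Ion Proton. Mapping to mm9 used TopHat2 followed by TMAP, and HTSeq gave the counts per gene (labels and methods of the study). Versions, apart from the build, and the gene annotation are not given in the sources used here. The values the authors deposited are a non-negative signal, the reads of each gene over a size factor for its library. Multiplied back, 100% of them were whole reads within 0.01. The factors differed from DESeq2's by at most 0.00523%. Of the listed genes 5108 were at 0 in all libraries, and Rn45s, a ribosomal RNA gene, took 1.87% to 4.95% of reads.

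The main test was limma (3.58.1, R 4.3.3, eBayes with a trend) on log2(normalized count + 1), genotype only. Genes entered if 3 or more libraries had 10 or more normalized counts. The log2 scale with a pseudocount understates the change of low genes. DESeq2 (1.42.0) and the edgeR (4.0.16) quasi-likelihood test served as alternatives, on the recovered reads. DESeq2 called 284 genes higher and 517 lower, and edgeR 314 and 382. Other alternatives were the replicate block, removal per library of natural spline trends (5 degrees of freedom) on exon GC content and length, which also removes any biological difference that follows them, pseudocounts of 4 and 16, another filter, TMM and upper-quartile scaling, voom, and leaving out each library. Scripts were tested on simulated data.

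Per the design text, differentiations were set up side by side with each replicate on its own day. The replicate number was therefore taken to pair the libraries in the block and in the ratios, but not in the main test. Across 13136 genes, the 2 libraries of a number deviated from their group means with correlations of 0.111, 0.00933 and -0.101. Genes were placed on NCBIM37 with GENCODE annotation, by symbol or older symbol (21981 of 23353, or 94.1%). Exon and coding lengths are those of all annotated isoforms merged. The members and lists were chosen with earlier results of these data known. Named were all 9 members, the called genes of each other list (up to 4 by lowest adjusted p, or, with none called, the 2 with the lowest adjusted p), the 5 genes nearest to the members' profile, and Evx1. Tcf7l1, the genes credited to the study and the markers at or near 0 fall outside this rule and were picked with their values in view. A gene that met the rule is not reported here.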

Additional observations from a re-analysis of the deposited data

How the results depend on the processing

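The direction of all 9 naive factors was kept under each of 13 alternatives with all libraries and each of 6 that left one out. Of 166 single-gene results with an adjusted p, 140 kept their side of the threshold, 9 lost the call (all Tfcp2l1) and 17 gained one (Nanog 6, Esrrb 6, Zfp42 5), and 5 had no adjusted p. The cause was not tested.

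Under the replicate block 76 genes were higher and 146 lower by limma, 0 of them members. DESeq2 with the block called 77, 207 and 0, with no adjusted p for 4 members, and edgeR with the block 67, 125 and 0. The block also ended the calls of Fgf4, Fgf5 and Sox3 given above and changed no other call printed for a gene. With GC and length trends removed, 99 genes were higher and 181 lower, and with the block as well 70 and 131, the members' median being 0.46 in both. By edgeR that median was 0.44. Members called higher were 2 with a pseudocount of 16, beside 298 of 13136 genes, and 0 with all genes that had a read, beside 189 of 18245. Members called were 4 each with upper-quartile scaling (370 of 13136 genes), voom (293 of 13136), DESeq2 (284 of 11623) and edgeR (314 of 13136). Upper-quartile scaling gave 370 genes higher and 325 lower, against 273 and 387.

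The core list had 1 call with GC removal, upper-quartile scaling, DESeq2, edgeR and voom. The formative and primed list had 0 with the block, GC removal, both, and edgeR with the block, and 1 with DESeq2 and the block. The other KLF genes had 0 with GC removal, alone or with the block, against 1. The streak list had 5 with both, or with edgeR and the block, against 8.

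Leaving out 1 library gave 80 to 340 genes higher, 140 to 362 lower, 0 to 2 members, a members' median of 0.31 to 0.50, and 0 to 1 calls in the core list, 0 to 4 in the formative and primed list, 2 to 5 in the other naive list and 0 to 2 in the other KLF list. Fewest genes were called higher without EVX1-Δfs replicate 3 (80) or 1 (91) and without wildtype replicate 3 (134).

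Per kilobase of coding sequence, wildtype levels were 1144 for Nanog, 438 for Zfp42, 273 for Klf2, 196 for Esrrb, 109 for Klf5, 68.9 for Klf4, 38.1 for Tfcp2l1 and 21.1 for Tcl1. Tcl1, Tfcp2l1 and Nr0b1 rest on the fewest reads. With 1 clone and 3 libraries, p-values measure the spread between differentiations of that clone and its parental line.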

Other observations

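The rest of the KLF family, zinc finger factors that share a DNA-binding domain with Klf2, Klf4 and Klf5, was measured in 11 of 14 genes, with a median log2 fold change of 0.17 and 7 above 0. Klf6 was at 674, 752 and 688 normalized counts in wildtype and at 874, 1085 and 1112 in EVX1-Δfs, and the groups did not overlap. Its log2 fold change of 0.53 ± 0.12 (SE) passed the test with limma (adjusted p = 0.0149, and 0.0388 with the replicate block) and missed it with GC and length trends removed (adjusted p = 0.119).

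Immediate early genes, which respond to handling and serum within minutes, had a median log2 fold change of 0.05 over 10 of 10 tested genes, and limma called none. Fos was at -0.36 ± 0.18 (SE, limma adjusted p = 0.223) and Jun at -0.24 ± 0.13 (limma adjusted p = 0.266). The list summed to 4574 to 5609 normalized counts in wildtype and 4656 to 5017 in EVX1-Δfs.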
